A study of Mus musculus with 6 samples.

Results

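p53 (gene symbol Trp53) and 9 genes that it is known to switch on directly were followed through 6 lines of mouse embryonic stem cells kept alive by 3 different POU5 proteins. The 10 genes were listed by name and were found on the arrays through the RefSeq transcript given for each probe. No cut on a measured value chose them, but earlier results of these data were known, so counts over them are not independent evidence. The 10 genes have 12 probes, and all 10 passed the filter on dim probes that left 14595 genes for testing. The 9 targets are Cdkn1a, Mdm2, Ccng1, Trp53inp1, Btg2, Plk2, Sesn1, Zmat3 and Phlda3.

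p53 is a transcription factor that is held at a low level by the ubiquitin ligase MDM2 and that accumulates, as protein, after DNA damage and other stress. It then binds DNA as a tetramer and raises genes that stop the cell cycle, repair DNA, restrain growth signalling or start cell death. MDM2 is itself one of its targets, so the pathway limits itself. In embryonic stem cells p53 is known for lowering pluripotency genes such as Nanog and for favouring differentiation after stress.

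All lines derive from ZHBTc4, an embryonic stem cell line in which both endogenous Oct4 alleles are disrupted and an Oct4 transgene is turned off by tetracycline. Each line was made by electroporating a linearised pCAG-IP plasmid carrying a POUV gene, which CAG, a promoter active in most cell types, drives. Cells received 2 µg/mL of tetracycline and, beginning on day 2, 1 µg/mL of puromycin, and day 9 colonies were expanded in serum and LIF, so every group shares the loss of the resident Oct4. Clones 1 and 2 of the mOct4 group carry mouse OCT4, clones 4 and 5 of the LcPOU5F1 group carry POU5F1 of the coelacanth, and clones 1 and 2 of the LcPOU5F3 group carry its paralog POU5F3. Each sample is 1 clone, and no group without a rescuing protein was analysed here. The labels call the cells mouse embryonic stem cells.

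Levels are log2 of the background-subtracted signal relative to the 75th percentile of the same array, so 0 is the level of that percentile, and they can be compared between arrays for 1 probe but not between probes. The labelled cell type was checked with marker genes. The summed linear signal of 8 pluripotency markers, of which 7 were lower in LcPOU5F3 than in mOct4, was 385 to 407 in the mOct4 clones, 341 to 419 in the LcPOU5F1 clones and 55.5 to 106 in the LcPOU5F3 clones. The sum of 10 trophectoderm markers, of which 9 were tested, with 6 higher and 1 lower in LcPOU5F3, was 35.3 to 35.8, 23.6 to 32.2 and 521 to 543 in the same order, although Elf5, a defining trophoblast gene, was not well above background on any array. The sum of 8 mesenchyme markers, with 4 higher and 1 lower, was 3.87 to 3.96, 1.92 to 2.37 and 42.1 to 88.2, and that of 8 endoderm markers, with 1 of the 4 tested higher, 4.42 to 5.20, 5.13 to 10.7 and 12.9 to 13.4, with Pdgfra not well above background on any array. Linear sums follow their brightest probes. For trophectoderm those were Krt18 (8.55 and 8.58 in LcPOU5F3 clones 1 and 2) and Krt8 (6.42 and 6.69). In the same clones Tagln (4.74 and 5.83) was brightest for mesenchyme and Col4a1 (3.46 and 3.35) for endoderm. Esrrb (5.24 and 4.02) and Zfp42 (4.89 and 4.03) were brightest for pluripotency. The part of the marker genes in the results on p53 targets was not tested, and a larger share of some cells cannot be told apart from more RNA per cell. On each array 43.5% to 57.8% of probes exceeded background clearly, and no spot was saturated. LcPOU5F3 clone 1 had the noisiest negative controls, and mOct4 clone 2 was alone on slide 2 while the other 5 arrays shared slide 1.

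p53 recognises DNA through a motif of 10 bases, usually as a pair of such decamers side by side, and promoter sequences of these genes were searched for it because the transcripts of most targets moved together. RefSeq promoter sequences (GRCm38.p6, 250 bases before to 50 after a start) were found for 8 of the 10 genes, in 10 windows. Trp53inp1 and Zmat3 had no entry. The decamer is its own reverse complement, so a search of 1 strand covers both. An exact decamer lay in 5 of the 10 windows, those of Cdkn1a (the upstream start), Ccng1, Mdm2, Sesn1 (the downstream start) and Trp53, against 8.36% of all 32817 windows. An adjacent pair covering 20 bases with at most 3 mismatches lay in 4 of them, against 6.29% of all windows. The closest pairs, with 1 mismatch each, lay in the windows of Cdkn1a and Ccng1, a closeness reached by 29 windows in all (0.0884%). This limit of 1 mismatch was chosen after the sequences had been seen. The 4 pairs are shown 5′ to 3′ on the strand of the gene, with all 20 bases of the pair in capitals, to show how they differ:
Cdkn1a, upstream start, 51 bases before the start, 1 mismatch: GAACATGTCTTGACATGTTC
Ccng1, 195 bases before the start, 1 mismatch: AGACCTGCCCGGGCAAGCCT
Trp53, 75 bases before the start, 3 mismatches: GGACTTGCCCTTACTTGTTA
Sesn1, downstream start, 173 bases before the start, 3 mismatches: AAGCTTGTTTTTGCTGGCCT

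The 250 bases before the start are shown for Cdkn1a and Ccng1, which hold the closest pairs, and for Btg2, a strongly changed target whose window held neither an exact decamer nor a pair. Capitals mark exact decamers and the pair, both strands were covered, and an exact decamer may lie within a pair, as it does in Ccng1.
Cdkn1a, chr17:29090729-29090978, plus strand: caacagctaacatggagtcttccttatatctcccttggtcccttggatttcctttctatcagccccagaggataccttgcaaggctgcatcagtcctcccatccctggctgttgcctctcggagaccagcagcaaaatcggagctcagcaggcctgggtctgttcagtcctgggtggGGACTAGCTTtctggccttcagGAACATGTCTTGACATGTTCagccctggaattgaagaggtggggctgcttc
Ccng1, chr11:40755287-40755536, minus strand: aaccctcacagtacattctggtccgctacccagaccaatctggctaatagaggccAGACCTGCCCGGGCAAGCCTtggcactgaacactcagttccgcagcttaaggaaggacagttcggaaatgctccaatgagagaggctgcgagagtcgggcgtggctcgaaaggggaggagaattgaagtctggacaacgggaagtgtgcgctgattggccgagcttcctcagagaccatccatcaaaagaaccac
Btg2, chr1:134079156-134079405, minus strand: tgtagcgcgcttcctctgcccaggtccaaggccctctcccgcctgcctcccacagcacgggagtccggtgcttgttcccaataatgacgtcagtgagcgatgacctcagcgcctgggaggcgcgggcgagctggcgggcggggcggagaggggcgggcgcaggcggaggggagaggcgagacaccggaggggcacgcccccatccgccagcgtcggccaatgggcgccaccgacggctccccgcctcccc

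The window of Mdm2 held the exact decamer GAACTTGCCT beginning 186 bases before the start, with no pair. No exact decamer and no pair lay in the windows of Btg2, Plk2 and Phlda3, of the downstream Cdkn1a start 2790 bases away, or of the upstream Sesn1 start, which says only that these letters are not in those 300 bases. A match is a description of the sequence and was not tied to binding by any measurement here.

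In the LcPOU5F3 clones 8 of the 9 targets rose against the mOct4 clones, the largest being Plk2 at 15.0-fold, Btg2 at 10.1-fold and Cdkn1a at 6.20-fold. Sesn1 fell, and Trp53 itself was lower without passing the test. In the LcPOU5F1 clones none of the 10 genes passed the test against mOct4. Set against each other, the paralogs differed in 6 of the 10 genes, each higher with LcPOU5F3. Of all genes, the test called 23.6% in LcPOU5F3 against mOct4, 0.0343% in LcPOU5F1 against mOct4 and 20.5% between the paralogs. The plot of levels in each clone shows all values.

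**Figure D1:**
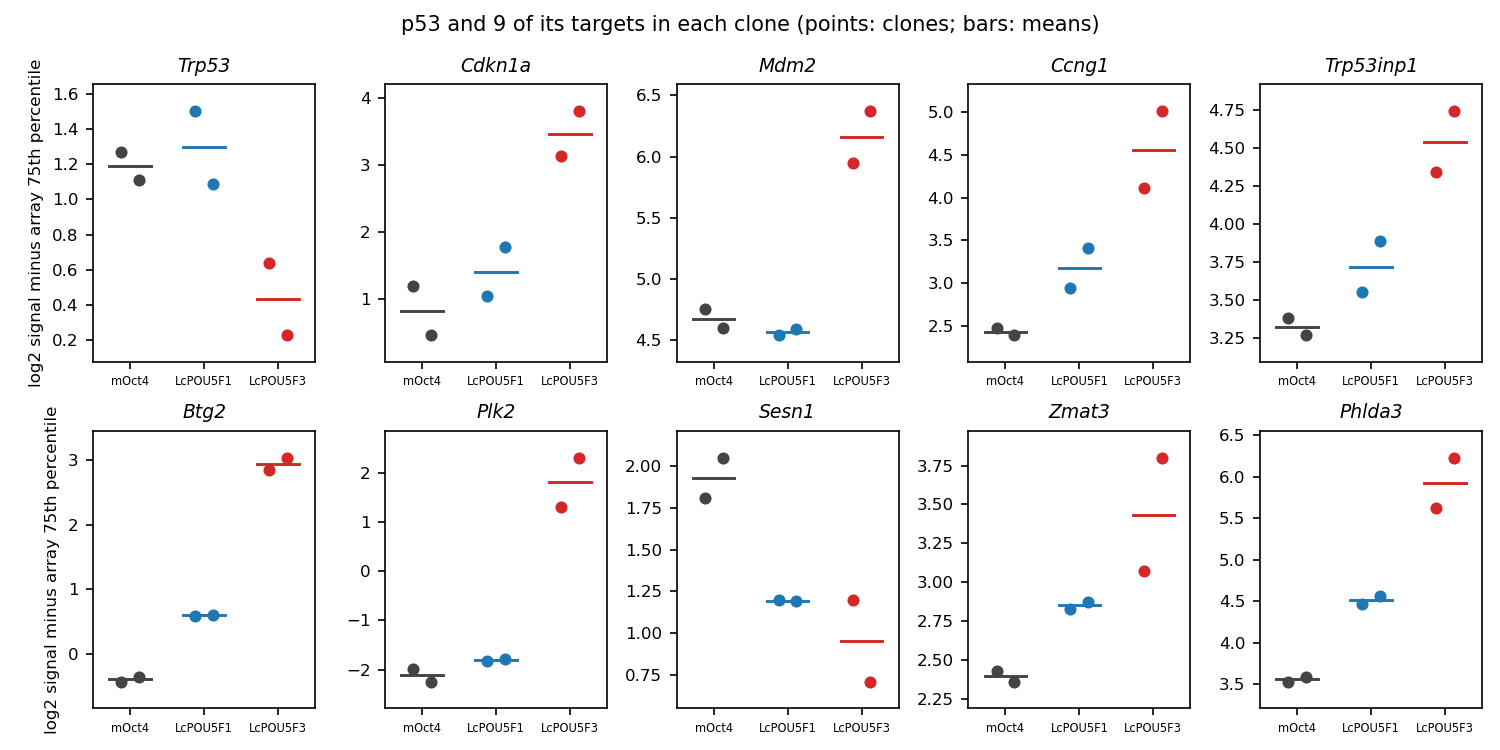
Level of each gene in each clone, as log2 signal minus the array's 75th percentile (vertical axis, a separate scale for each gene and not starting at 0), with clones as points and group means as bars. The LcPOU5F3 clones lie above both mOct4 clones for 8 targets and below them for Trp53 and Sesn1, while the LcPOU5F1 clones lie nearer to mOct4 for most genes.

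The transcript of p53 itself was not higher where its targets were. The level of Trp53 was 1.27 and 1.11 in the mOct4 clones, 1.5 and 1.09 in the LcPOU5F1 clones, and 0.64 and 0.23 in the LcPOU5F3 clones. Both LcPOU5F3 clones lay below the other 4, and the LcPOU5F1 clones spanned the mOct4 clones. The difference between LcPOU5F3 and mOct4 was -0.76 ± 0.23 (log2 difference ± SE, n = 2 clones per group), or 1.69-fold lower, with an adjusted p of 0.07 by limma with Benjamini-Hochberg adjustment over all 14595 genes. LcPOU5F1 exceeded LcPOU5F3 by 0.86 ± 0.23 (adjusted p = 0.057). The difference between LcPOU5F1 and mOct4 was 0.10 (95% interval -0.49 to 0.69), and -0.27 when arrays were centred on their median, which moved the median of all genes from 0.10 to -0.27. Only transcripts were measured, and p53 is known to be controlled mainly as a protein, whose amount and activity were not measured here.

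Of the 10 genes, 8 were called higher and 1 lower in LcPOU5F3 against mOct4. Over all genes tested, 23.6% were called in this comparison, 11.8% higher and 11.8% lower. The median difference of the 10 genes was 1.81, against -0.09 over all genes. The clones of both groups did not overlap for any of the 10 genes, with 8 higher and 2 lower in LcPOU5F3, where 68.4% of all genes did not overlap (30.0% higher and 38.4% lower). Without mOct4 clone 1, or without clone 2, only Btg2 was called, with differences of 3.31 and 3.38 (adjusted p = 0.048 and 0.045). Leaving out clone 2 is also the comparison within slide 1. Slide as a block is that same fit and no separate check, because mOct4 clone 2 was alone on slide 2. With slide as a block Btg2 was likewise the 1 gene called of the 10, and 41 of all 14595 genes were.

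Cdkn1a encodes p21, the inhibitor of cyclin-dependent kinases through which p53 stops the cell cycle. Its main probe read 1.20 and 0.47 in the mOct4 clones, 1.05 and 1.78 in the LcPOU5F1 clones, and 3.13 and 3.80 in the LcPOU5F3 clones. The LcPOU5F3 clones were the highest, and the other groups overlapped. The rise over mOct4 was 2.63 ± 0.41, or 6.20-fold (adjusted p = 0.016), and LcPOU5F1 was 4.15-fold lower than LcPOU5F3 (-2.05 ± 0.41, adjusted p = 0.03).

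A further Cdkn1a probe, A_55_P1986282, is assigned to transcript NM_001111099, whereas the main probe, A_51_P363947, is assigned to NM_007669. The further probe read -3.56 and -4.48 in the mOct4 clones, -4.98 and -3.64 in the LcPOU5F1 clones, and -2.01 and -0.81 in the LcPOU5F3 clones. It was well above background on 1 mOct4 array, on no LcPOU5F1 array and on both LcPOU5F3 arrays. It passed the filter through LcPOU5F3 alone, where it is high, so it had to differ and is no independent support for the main probe, and its readings on the other arrays are near or below background. Against LcPOU5F1 it was at least 2.19-fold higher in LcPOU5F3, taking the dim LcPOU5F1 signals at the lowest level well above background on their arrays or at their own, whichever was higher. The RefSeq promoter table does not pair its windows with transcript accessions, so neither probe was tied to the upstream start that holds the decamer pair.

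**Figure D2:**
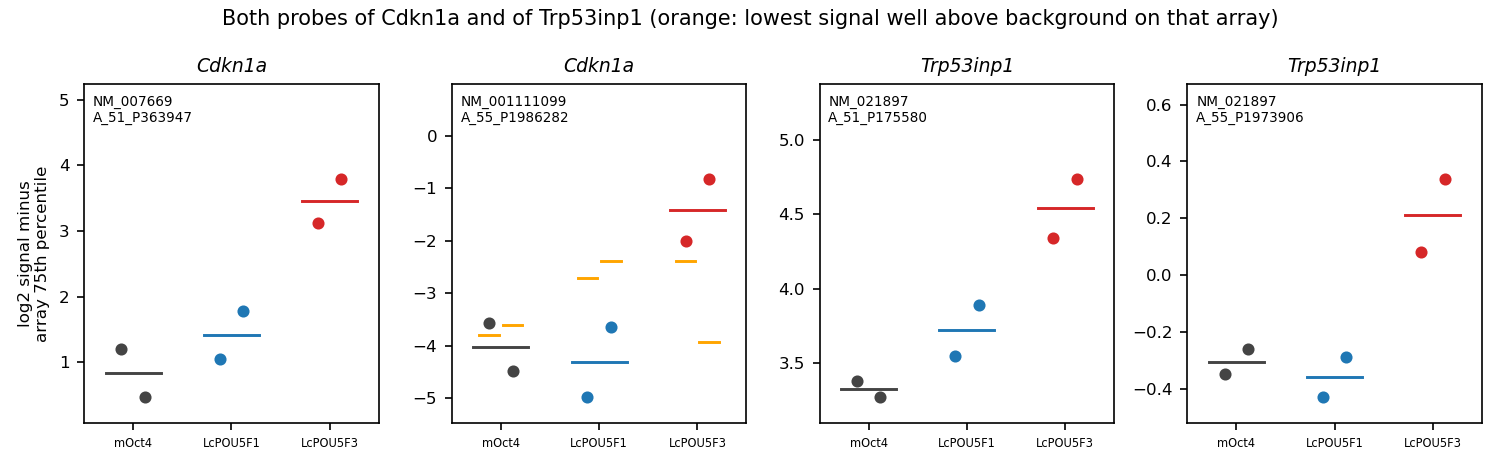
Levels of both probes of Cdkn1a and of Trp53inp1 in each clone (log2 signal minus the array's 75th percentile, points for clones and bars for group means); orange marks in the panel of the dim Cdkn1a probe show the lowest signal well above background on each array. Both Cdkn1a probes are highest in the LcPOU5F3 clones, and the dimmer Trp53inp1 probe spans a smaller range than the brighter one.

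Btg2, an antiproliferative gene, and Plk2, a polo-like kinase induced by serum and stress, showed the largest differences of the 10 genes. Btg2 read -0.43 and -0.36 in the mOct4 clones, 0.58 and 0.61 in the LcPOU5F1 clones, and 2.85 and 3.04 in the LcPOU5F3 clones. The 3 groups were separated and the clones within each lay close together. Its rise in LcPOU5F3 over mOct4 was 3.34 ± 0.15 (10.1-fold, adjusted p = 0.0025). Plk2 read -1.98 and -2.24 in the mOct4 clones, -1.82 and -1.78 in the LcPOU5F1 clones, and 1.31 and 2.30 in the LcPOU5F3 clones. Its rise in LcPOU5F3 was 3.91 ± 0.35 (15.0-fold, adjusted p = 0.0062), and it was 12.1-fold lower in LcPOU5F1 than in LcPOU5F3 (-3.60 ± 0.35, adjusted p = 0.0071). The paralogs differed 5.10-fold in Btg2 (-2.35 ± 0.15, adjusted p = 0.0043).

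Ccng1, which encodes cyclin G1, a partner of a phosphatase that acts on MDM2, read 2.47 and 2.39 in the mOct4 clones, 2.94 and 3.41 in the LcPOU5F1 clones, and 4.11 and 5.01 in the LcPOU5F3 clones. It rose 4.38-fold in LcPOU5F3 over mOct4 (2.13 ± 0.34, adjusted p = 0.017) and was 2.61-fold lower in LcPOU5F1 than in LcPOU5F3 (-1.38 ± 0.34, adjusted p = 0.047). Mdm2, the feedback inhibitor of p53, read 4.75 and 4.60 in the mOct4 clones, 4.54 and 4.59 in the LcPOU5F1 clones, and 5.95 and 6.37 in the LcPOU5F3 clones. Mdm2 was the 1 target with its lowest mean in the LcPOU5F1 clones, just under mOct4. It rose 2.80-fold in LcPOU5F3 over mOct4 (1.48 ± 0.19, adjusted p = 0.011), and the paralogs differed 3.03-fold (-1.60 ± 0.19, adjusted p = 0.01).

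Phlda3 encodes a small protein that restrains AKT, a growth and survival kinase. It read 3.53 and 3.58 in the mOct4 clones, 4.47 and 4.56 in the LcPOU5F1 clones, and 5.63 and 6.23 in the LcPOU5F3 clones, with no overlap between any groups. It rose 5.20-fold in LcPOU5F3 over mOct4 (2.38 ± 0.23, adjusted p = 0.0068) and was 2.66-fold lower in LcPOU5F1 than in LcPOU5F3 (-1.41 ± 0.23, adjusted p = 0.02).

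Trp53inp1 encodes a stress-induced protein that takes part in cell death and autophagy. Its main probe read 3.38 and 3.27 in the mOct4 clones, 3.55 and 3.89 in the LcPOU5F1 clones, and 4.34 and 4.74 in the LcPOU5F3 clones. The rise in LcPOU5F3 over mOct4 was 2.32-fold (1.21 ± 0.21, adjusted p = 0.02), and the difference between the paralogs did not pass (-0.81 ± 0.21, adjusted p = 0.053). The other probe of the same transcript kept the order of LcPOU5F3 over mOct4 but gave a smaller difference of 0.52, which did not pass when every probe was fitted (adjusted p = 0.12). It read -0.35 and -0.26, -0.43 and -0.29, and 0.08 and 0.34 in the mOct4, LcPOU5F1 and LcPOU5F3 clones.

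Zmat3, which encodes an RNA-binding zinc-finger protein, read 2.43 and 2.36 in the mOct4 clones, 2.83 and 2.87 in the LcPOU5F1 clones, and 3.07 and 3.80 in the LcPOU5F3 clones. Its rise in LcPOU5F3 over mOct4, 2.06-fold (1.04 ± 0.27, adjusted p = 0.046), was the smallest of the 8 and the closest to the threshold, and it was called in 10 of the 20 settings of processing and clones that were run. The difference between the paralogs was -0.58 (95% interval -1.26 to 0.09, adjusted p = 0.17).

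Sesn1, which encodes a sestrin that restrains the growth kinase complex mTORC1, went the other way. It read 1.81 and 2.05 in the mOct4 clones, 1.20 and 1.19 in the LcPOU5F1 clones, and 1.20 and 0.71 in the LcPOU5F3 clones. Both groups of coelacanth clones lay below both mOct4 clones, and the 2 coelacanth groups met at 1.20. Sesn1 was 1.96-fold lower in LcPOU5F3 than in mOct4 (-0.97 ± 0.22, adjusted p = 0.034), a call made in 9 of the 20 settings run, with adjusted p between 0.0085 and 0.20. LcPOU5F1 differed from mOct4 by -0.73 ± 0.22 (adjusted p = 0.25), and from LcPOU5F3 by 0.24 (95% interval -0.31 to 0.79). The Sesn1 probe, assigned to NM_001162908, is the gene's only named probe on the array.

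**Figure D3:**
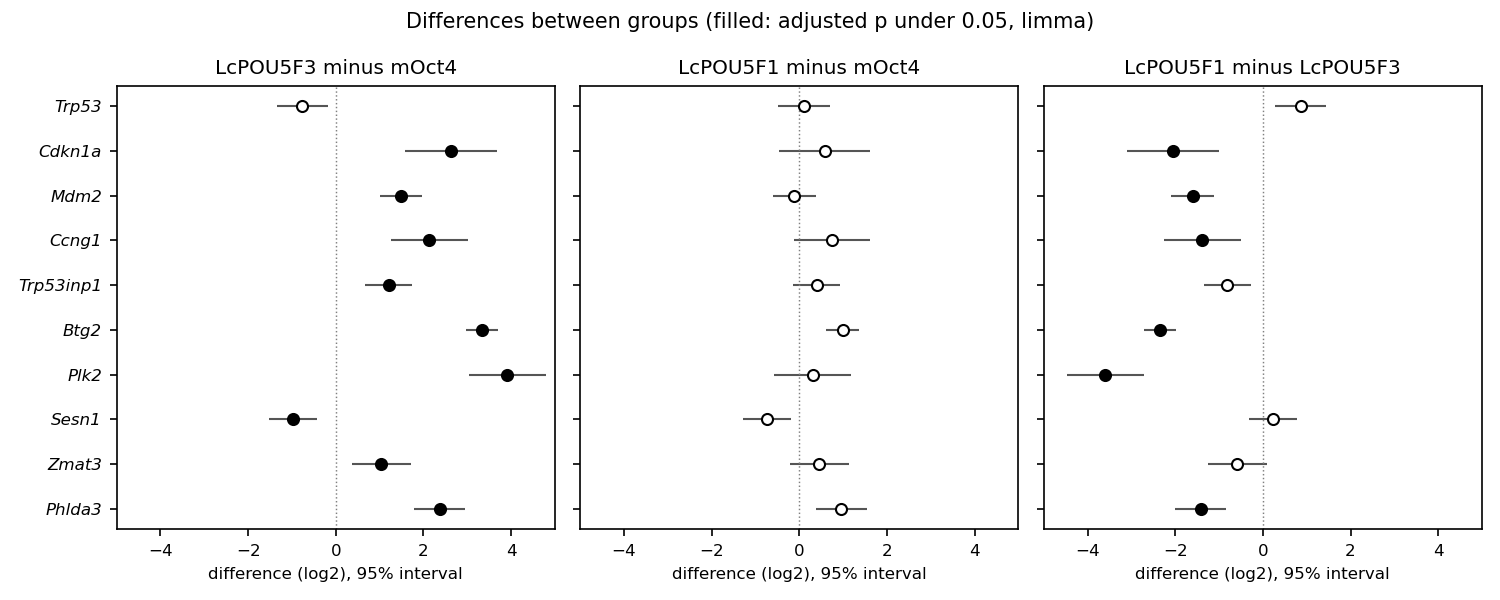
Log2 difference between group means for each of the 10 genes (points) with 95% intervals (lines) in the 3 comparisons; filled points passed limma's test at an adjusted p under 0.05. In LcPOU5F3 minus mOct4 8 targets are filled to the right of 0 and Sesn1 to the left, in LcPOU5F1 minus mOct4 no point is filled, and in LcPOU5F1 minus LcPOU5F3 6 points are filled to the left.

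In LcPOU5F1 against mOct4 none of the 10 genes was called, in a comparison where limma called 0.0343% of all genes, 0.0137% higher and 0.0206% lower. The median difference of the 10 was 0.43, against 0.10 over all genes, and 3 of the 10 had an unadjusted p under 0.05, where 15.5% of all genes did. Those were Btg2 at 0.99 ± 0.15 (95% interval 0.62 to 1.36, adjusted p = 0.12), Phlda3 at 0.96 ± 0.23 (0.38 to 1.55, adjusted p = 0.20) and Sesn1. The intervals of the rest all held 0: Ccng1 differed by 0.75 (-0.13 to 1.62), Cdkn1a by 0.58 (-0.46 to 1.62), Zmat3 by 0.46 (-0.22 to 1.13), Trp53inp1 by 0.40 (-0.14 to 0.94), Plk2 by 0.31 (-0.57 to 1.19) and Mdm2 by -0.11 (-0.60 to 0.37). Differences of the size seen with LcPOU5F3 lay outside these intervals for each of the 8 targets that rose there, except Zmat3. The clones did not overlap for 6 genes that were higher and 2 that were lower in LcPOU5F1, where 60.6% of all genes did not overlap (38.6% higher and 22.0% lower).

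The spread used in that test is pooled over all 6 arrays, and the LcPOU5F3 clones were the most variable. Over the 10 genes the median SD was 0.09, 0.05 and 0.39 for mOct4, LcPOU5F1 and LcPOU5F3, against 0.11, 0.15 and 0.23 over all genes. When only the 4 arrays of mOct4 and LcPOU5F1 were fitted, Btg2 (adjusted p = 0.039) and Phlda3 (adjusted p = 0.041) were called higher in LcPOU5F1, with 3.68% of all genes called and 1.22% called higher. Leaving out either LcPOU5F3 clone gave this same fit, since a clone alone in its group adds no spread, so it is no further support. With a variance weight for each group the same 2 genes were called (adjusted p = 0.029 and 0.043), with 3.45% of all genes called and 1.02% called higher.

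Between the paralogs, 6 of the 10 genes were called lower in LcPOU5F1 than in LcPOU5F3 and none higher. Over all genes 20.5% were called, 9.98% lower and 10.5% higher. That split of 1456 lower and 1531 higher became 1852 and 502 when arrays were centred on their median, and 1772 and 1176 with quantile normalization. Median centring also gave all 10 genes the same SE of 0.45, so its counts differ in the spread used as well as in the centring. In the main fit the median of the 10 was -1.40, against 0.21 over all genes. Clones did not overlap for 8 genes that were lower and for Trp53, which was higher, where 65.4% of all genes did not overlap (24.0% lower and 41.4% higher). This comparison and that of LcPOU5F3 with mOct4 share the LcPOU5F3 clones, so their values are not independent. When a clone was left out, the number called over all genes moved in the same direction as that of the 10 genes. The 6 paralog calls became 2, Btg2 and Plk2, when any 1 clone of mOct4 or LcPOU5F1 was left out, although the mOct4 clones enter this comparison through the spread alone. Without LcPOU5F3 clone 2 there were 4 calls, and without LcPOU5F3 clone 1 there were 9.

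The mean level ran from mOct4 through LcPOU5F1 to LcPOU5F3 in 7 of the 9 targets, namely Cdkn1a, Ccng1, Trp53inp1, Btg2, Plk2, Zmat3 and Phlda3, although the Plk2 difference between LcPOU5F1 and mOct4 was -0.06 when arrays were centred on their median. Of these, mOct4 and LcPOU5F1 clones overlapped for Cdkn1a, and their difference passed the test for none. The order is that of the main probes. The other Trp53inp1 probe put LcPOU5F1 at -0.06 from mOct4, and the further Cdkn1a probe, near or below background in both groups, at -0.29. The share of all genes with this order was not counted. In the LcPOU5F3 pair, clone 2 was above clone 1 in 8 of the 10 genes, by 0.99 for Plk2, 0.90 for Ccng1, 0.73 for Zmat3, 0.68 for Cdkn1a and 0.60 for Phlda3, and below it by 0.42 for Trp53 and 0.49 for Sesn1. Over all genes 44.0% were higher in clone 2, and the median size of the difference was 0.33. These 8 are the targets that rose against mOct4. In the LcPOU5F1 pair the same 8 were higher in clone 5 than in clone 4, by 0.73 for Cdkn1a, 0.47 for Ccng1 and 0.34 for Trp53inp1. For Mdm2, Btg2, Plk2, Zmat3 and Phlda3 the difference was only 0.04 to 0.08, below the median size over all genes. There 49.2% of all genes were higher in clone 5, and the median size was 0.21. In the mOct4 pair 3 of the 10 were higher in clone 2, and 45.9% of all genes. LcPOU5F3 clone 2 also had the lower summed pluripotency signal, 55.5 against 106 in clone 1, and the higher mesenchyme signal, 88.2 against 42.1, while the trophectoderm sums were 543 and 521. The part of these sums in the difference between the clones was not tested.

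The 5 genes with the pattern most like Cdkn1a over the 6 arrays were Vps26c, Ninj1, Ak3, Arhgap18 and Ndst1, with Pearson correlations of log2 values between 0.9969 and 0.9991. Ninj1, a membrane protein gene, read 2.75 and 2.40 in the mOct4 clones, 2.68 and 3.16 in the LcPOU5F1 clones, and 4.00 and 4.37 in the LcPOU5F3 clones. A correlation of at least 0.9 with Cdkn1a was reached by 1334 genes (9.14%). With Cdkn1a the other targets that rose correlated at 0.91 to 0.99, Trp53 at -0.90 and Sesn1 at -0.82, as a description of the same 6 arrays.

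Beyond these 9, 36 other known p53 targets were listed, of which 34 passed the filter on dim probes and Dram1 and Rrm2b did not. In LcPOU5F3 against mOct4, 19 rose, 2 fell and 13 did not pass, where 11.8% of all genes were called higher and 11.8% lower, and the median difference was 1.26 against -0.09 over all genes. Of the 34, 2 passed the filter through the LcPOU5F3 arrays alone, where they are high, and so had to differ. Among the other 32 genes 17 rose and 2 fell, with a median of 1.20. Some of these genes had been seen to rise in these samples when the list was made, so its count is not independent evidence. Perp, a membrane protein of desmosomes and of p53-induced death, read 2.03 and 1.61 in the mOct4 clones, 3.87 and 3.14 in the LcPOU5F1 clones, and 6.40 and 7.27 in the LcPOU5F3 clones. It rose by 5.02 ± 0.40 (adjusted p = 0.0058). Fas, a death receptor, is 1 of the genes kept through LcPOU5F3 alone: its clones read -0.80 and 1.70 there, at least 17.7-fold above mOct4, where no array was well above background. Tnfrsf10b, another death receptor gene, rose by 1.53 (adjusted p = 0.01), and the metastasis suppressor Cd82 by 3.13 (adjusted p = 0.008).

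Of 3 targets that promote death at the mitochondrion, 1 passed the test. Bbc3, which encodes PUMA, rose by 1.11 (adjusted p = 0.016), from 2.88 and 2.60 in the mOct4 clones to 3.96 and 3.75 in the LcPOU5F3 clones. Bax differed by -0.09 (95% interval -0.55 to 0.36), with all 6 clones between 4.68 and 5.10. Pmaip1, which encodes NOXA, read 1.82 and 2.72 in mOct4, -0.11 and 2.11 in LcPOU5F1, and 3.15 and 3.85 in LcPOU5F3, and its difference of 1.23 ± 0.79 did not pass (adjusted p = 0.30). The 2 targets that fell, named after their values were seen, were Gdf15, a stress cytokine gene, by 2.40 and Fdxr, a mitochondrial electron transfer gene, by 1.07 on the log2 scale. The phosphatase gene Ptpn14 rose by 2.48 (adjusted p = 0.0058).

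In LcPOU5F1 against mOct4 none of the 34 passed, 10 had an unadjusted p under 0.05, where 15.5% of all genes did, and the median was 0.09, against 0.10 over all genes. Between the paralogs 10 of the 34 were lower in LcPOU5F1 and 1, Fdxr, was higher by 0.86, with a median of -0.74 against 0.21, where 9.98% of all genes were called lower and 10.5% higher. Without the genes kept through LcPOU5F3 alone, 8 of 32 were lower and 1 higher, with a median of -0.71. Fas, among those left out, was at least 7.97-fold lower in LcPOU5F1, where no array was well above background. Perp differed by -3.34, Ptpn14 by -2.39, Ddit4l by -2.16 and Tnfrsf10b by -1.60. Cd82 differed by -4.39, with 1 LcPOU5F1 array well above background, and LcPOU5F1 differed from mOct4 in it by -1.25 (adjusted p = 0.23). In each of the following fits without a clone, the number called over all genes moved in the same direction. Without mOct4 clone 1 or clone 2 the 21 calls in LcPOU5F3 against mOct4 became 1, and without LcPOU5F1 clone 4 or clone 5 they became 13. The 11 calls between the paralogs became 4 without either mOct4 clone, 6 without LcPOU5F1 clone 4, 3 without LcPOU5F1 clone 5 and 22 without LcPOU5F3 clone 1.

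Of 22 regulators and family members that act on or with p53, all tested, 1 rose and 7 fell in LcPOU5F3 against mOct4, where 11.8% of all genes were called higher and 11.8% lower. Their median was -0.39, against -0.09 over all genes. None of the 22 was called without mOct4 clone 1 or without clone 2, 1 rose and 3 fell without LcPOU5F1 clone 4 or clone 5, and 1 rose and 4 fell without LcPOU5F3 clone 2. The number called over all genes fell in each of these fits too. In the main fit the gene that rose was Cdkn2a, which encodes ARF, the inhibitor of MDM2, and the cell cycle inhibitor p16. Cdkn2a read 2.06 and 1.22 in the mOct4 clones, 3.80 and 3.85 in the LcPOU5F1 clones, and 4.04 and 4.32 in the LcPOU5F3 clones. Both groups of coelacanth clones lay above both mOct4 clones. The difference from mOct4 was 2.54 ± 0.30 in LcPOU5F3 (adjusted p = 0.0098) and 2.18 ± 0.30 in LcPOU5F1 (95% interval 1.41 to 2.96, adjusted p = 0.12). The paralogs differed in Cdkn2a by -0.36 (95% interval -1.13 to 0.42).

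The 7 regulators that fell included Sirt1, a deacetylase that acts on p53, by 1.26 (adjusted p = 0.0093) and the damage kinase genes Atm, Atr and Chek2 by 1.16, 0.86 and 1.04 on the log2 scale. Npm1, a nucleolar protein gene that acts on ARF and MDM2, fell by 0.74 (adjusted p = 0.033). Mdm4, the partner of MDM2, differed by -0.77 (adjusted p = 0.12) and Ppm1d, a phosphatase of the p53 feedback, by 0.50 (adjusted p = 0.057). The family members Trp63 and Trp73 differed by -0.15 (adjusted p = 0.54) and -0.53 (adjusted p = 0.12). In LcPOU5F1 against mOct4 none of the 22 passed in the main fit. With the LcPOU5F3 arrays kept out of the spread, 1 was called higher, where 1.22% of all genes were. Between the paralogs 6 were higher and Ppm1d lower (-0.61, adjusted p = 0.04) in LcPOU5F1, where 10.5% of all genes were called higher and 9.98% lower, and the median was 0.46 against 0.21 over all genes. When a clone was left out, the number called over all genes moved in the same direction as that of the 22. Only 1 was called, higher, when any 1 clone of mOct4 or LcPOU5F1 was left out, 3 were higher without LcPOU5F3 clone 2, and 9 higher and 1 lower without LcPOU5F3 clone 1.

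Of 17 listed cell cycle genes that p53 is known to lower through p21, 15 were tested, and Aurkb and Ccne2 did not pass the filter. In LcPOU5F3 against mOct4, 4 fell and none rose, where 11.8% of all genes were called lower, and the median was -0.43 against -0.09 over all genes. Those that fell were Mybl2 by 1.85 (adjusted p = 0.02), the spindle checkpoint gene Bub1b by 0.84 (adjusted p = 0.018), E2f1 by 0.69 (adjusted p = 0.032) and Ccnb1, which encodes cyclin B1, by 0.55 (adjusted p = 0.046). Between the paralogs 4 were higher in LcPOU5F1, Mybl2 by 1.76, Bub1b by 0.76, Birc5 by 0.66 and Mcm5 by 0.81, where 10.5% of all genes were called higher, and the median was 0.55 against 0.21. Without mOct4 clone 1 or clone 2 none of the 15 was called in either comparison. Without LcPOU5F1 clone 4 or clone 5, 2 fell against mOct4 and none was called between the paralogs, and without LcPOU5F3 clone 2 the counts were 2 and 2. Without LcPOU5F3 clone 1, 5 fell and 1 rose against mOct4, and 6 were higher and 1 lower between the paralogs. In each of these fits the number called over all genes moved in the same direction. None passed in LcPOU5F1 against mOct4.

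**Figure D4:**
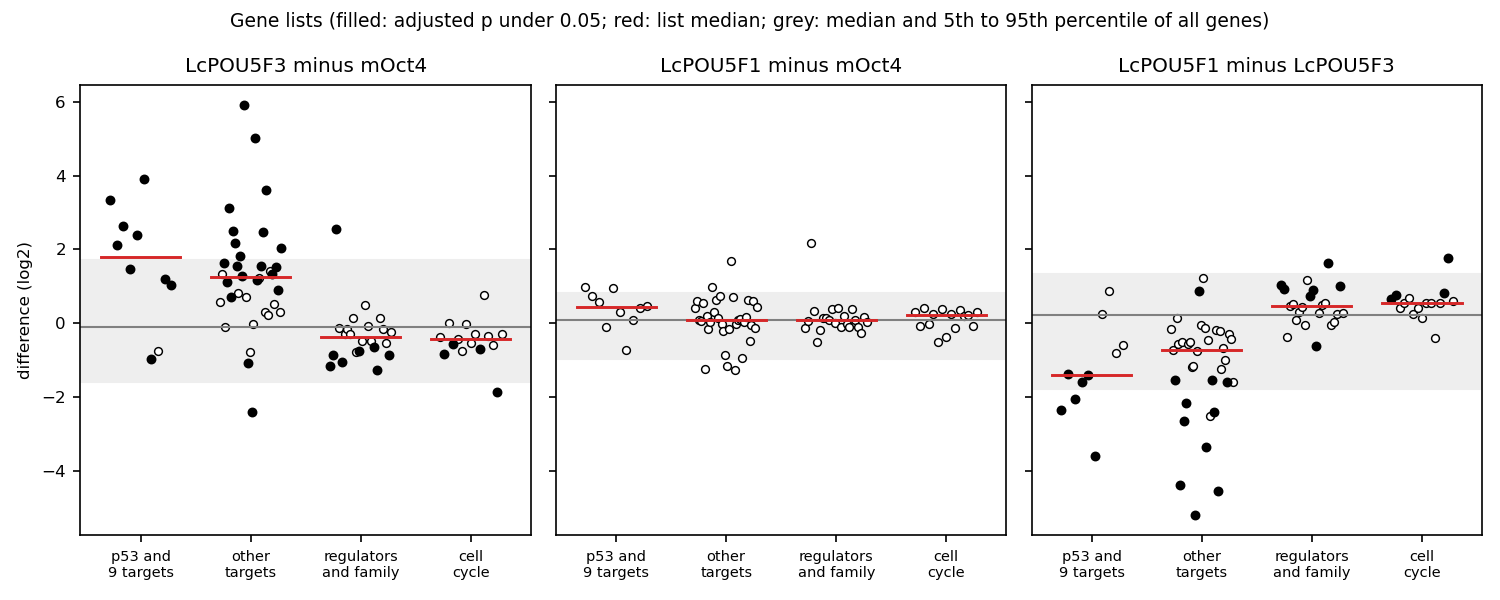
Log2 difference of each tested gene (points, filled where the adjusted p was under 0.05) in the 4 lists for the 3 comparisons, with the list median in red and the median and the 5th to 95th percentile of all 14595 genes in grey; points of genes not well above background in a group, such as Fas, are drawn at their measured value. The medians of both target lists lie above that of all genes in LcPOU5F3 minus mOct4, at 1.81 and 1.26, and those of the regulators and the cell cycle genes lie below it, at -0.39 and -0.43.

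The promoter motif was set beside the expression of all genes that have a window. Of the 29 genes with a pair of at most 1 mismatch, 8 were tested, and only Cdkn1a and Ccng1 of these were called higher in LcPOU5F3 against mOct4. The known targets Gtse1 and Rps27l, also among the 8 and picked after their values were seen, differed by -0.03 (adjusted p = 0.95) and 0.30 (adjusted p = 0.22). Of 784 tested genes whose closest pair had 2 or 3 mismatches, 13.0% were called higher and 12.2% lower, against 11.7% and 11.8% of the 11610 tested genes with any window. Windows of 300 bases leave out sites in introns and farther upstream.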

How the data were processed

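Total RNA of 6 clones was labelled with Cy3 and hybridised to 1-colour Agilent arrays. Per the file headers, the authors extracted spots with Agilent Feature Extraction 11.0.1.1 (protocol GE1_1100_Jul11), and the deposited processed intensity is linear, background-subtracted and not scaled between arrays. The deposited series matrix held the same values (ratio 0.995 to 1.005). Log2 intensity minus each array's 75th percentile was averaged over the spots of a probe, without outlier spots and controls. Probes well above background on both arrays of a group were kept, with the brightest probe standing for a gene. Probes were named through RefSeq accessions (27656 of 55681 matched). Group means of all 6 arrays were fitted with limma 3.58.1 in R 4.3.3, with Benjamini-Hochberg adjustment over all genes and calls at 0.05. Moderated degrees of freedom were 5.16. Nothing in the labels says that clones came from separate electroporations, so p-values measure the spread between clones. A fold against a group with no array above background is given as a bound. Normexp correction used the median spot signal. The genes, lists and motif limits were chosen with earlier results of these data known: the 10 genes, and of each list up to 6 called genes with the smallest p per comparison and a few listed by name, are named, except 1 listed gene that is not reported here. The fit was tested on simulated data. Alternatives were other centring, filters, probe rules, variance models, blocks and leaving out each clone.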

Additional observations from a re-analysis of the deposited data

How the results depend on the processing

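In LcPOU5F3 against mOct4 the differences of all 10 genes kept their direction under every alternative run. The 9 calls became 1 with slide as a block and 0 with the replicate block, and 1 to 10 when a clone was left out. The 21 calls among the other p53 targets became 12 with no filter, 13 with only the 4 arrays compared, 1 with slide as a block and 0 with the replicate block, and 1 to 26 when a clone was left out. The replicate block called 0 of all genes. Over all genes the 3438 calls of the main fit became 1541 of 20969 with no filter and 2194 with only the 4 arrays compared. The labels do not say whether same-numbered clones share an origin. The deviations of mOct4 clone 1 and LcPOU5F3 clone 1 correlated at -0.097, which cannot decide this. In LcPOU5F1 against mOct4 the 0 calls became 2 with a variance weight per group and 2 with only the 4 arrays compared, and 0 to 2 when a clone was left out, and the other targets gave 3 with median centring, all lower. Median centring moved the median of all genes there from 0.10 to -0.27, and with it Trp53 to -0.27 and Plk2 to -0.06. Its split was 47 higher and 703 lower, that of quantile normalization 7 and 98, against 2 and 3. Median centring gave all 10 genes the same SE of 0.45, so its counts also rest on another spread than those of the main fit. Leaving out a clone gave Trp53 -0.11 to 0.31. Between the paralogs the 6 calls became 3 with no filter, 2 with only the 4 arrays compared, 2 with slide as a block and 2 to 9 when a clone was left out. The 11 calls among the other targets became 19 with normexp, 22 with an intensity trend, 4 with only the 4 arrays compared, 4 with slide as a block and 3 to 22 when a clone was left out. Over all genes the 2987 paralog calls became 959 of 20969 with no filter and 498 with only the 4 arrays compared. They became 3263 with normexp and 4385 with an intensity trend. The Sesn1 difference between the paralogs turned to -0.17 with median centring and ranged from -0.01 to 0.49 when a clone was left out. A clone left alone in its group was assumed to vary like the others. Some settings are the same fit, so their counts are not separate checks. Slide as a block equals leaving out mOct4 clone 2. Fitting only the 4 arrays compared equals leaving out a clone of the group not compared. Causes were not tested. Dim probes, such as the further Cdkn1a probe, are limited by background.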
